A study of Homo sapiens with 4 samples.

Results

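The 9 genes described here bring vitamin A into cells, turn it into retinoic acid and bind the product: the uptake receptor gene STRA6, the retinol dehydrogenase genes RDH10 and RDH11, the retinaldehyde dehydrogenase genes ALDH1A1, ALDH1A2 and ALDH1A3, and the binding protein genes CRABP1, CRABP2 and FABP5. They were chosen by gene symbol, and all 9 were found among the 55765 rows of the count table. The data are RNA-seq libraries of SK-N-BE(2)C, an established neuroblastoma line with amplified MYCN. ATRA, all-trans retinoic acid, was given at 10 µM for 144 h, and control cells had ethanol, the solvent, for as long. Each group had 2 libraries, and all came from this 1 line grown in medium with serum. Whether a group's libraries are independent cultures is not stated, so the spread that p-values rest on may be purely technical.

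Cells take up retinol through STRA6, oxidise it to retinaldehyde with retinol dehydrogenases and oxidise that to retinoic acid with ALDH1A enzymes. CRABP2 carries retinoic acid to its receptors in the nucleus, CRABP1 is mainly tied to its storage and breakdown in the cytosol, and FABP5, chiefly a fatty acid carrier, can bring it to PPARD. Retinoic acid is used to differentiate neuroblastoma cells, and in many tissues it alters transcription of the genes that make, bind and destroy it. The treated cells received the finished acid, so they did not need the uptake and synthesis steps to obtain it.

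Libraries held 15518828 and 16498355 reads with ATRA, against 12850462 and 19883465 with ethanol. All 13 neuroblastoma markers examined, MYCN and HAND2 among them, had reads, with summed levels of 5105 and 5878 CPM with ATRA and 6551 and 6371 CPM with ethanol. CPM is the count scaled to a common library size, with TMM factors. Libraries split by title number in 1 technical measure. Mitochondrial ribosomal RNA made up 2.49% (ATRA) and 5.96% (ethanol) of reads in those without a number, here replicate 1, and 0.130% (ATRA) and 0.0291% (ethanol) in those numbered 2. Differences within libraries of the same number are therefore given beside the pooled values.

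CRABP2 had the largest estimated fold change of the 8 genes tested. It was at 629 and 769 CPM in the ATRA libraries, against 8.70 and 45.5 CPM in the ethanol libraries, a 25.6-fold difference. RDH10 was 4.10-fold higher with ATRA and CRABP1 6.88-fold higher, while FABP5 was 1.62-fold lower. STRA6 was abundant in every library and RDH11 overlapped between the groups. The ALDH1A genes, whose enzymes form retinoic acid, were the scarcest of the 9 per kilobase of exon in every library.

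None of these differences passed the test across all genes. Of the 9 genes 8 passed the filter on low counts, and 0 of the 8 had an adjusted p under 0.05 (edgeR quasi-likelihood, Benjamini-Hochberg), where 0.698% of all 18900 genes tested did. At an unadjusted p under 0.05 there were 4, namely RDH10, CRABP1 and CRABP2 higher and FABP5 lower, where 15.9% of all genes were. DESeq2 called 3, RDH10, CRABP1 and CRABP2, beside 6.44% of the genes it tested, and limma-voom called 0, beside 0.265%. The groups did not overlap for 5 genes with ATRA higher, against 23.8% of all genes, and for 2 with ATRA lower, against 21.7% of all genes. ALDH1A2 is among the 5 and passed the filter through its ATRA libraries alone, so it had to be higher there. The median log2 fold change of the 8 was 1.29, beside 0.01 over all genes tested, again with ALDH1A2 in it.

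**Figure D1:**
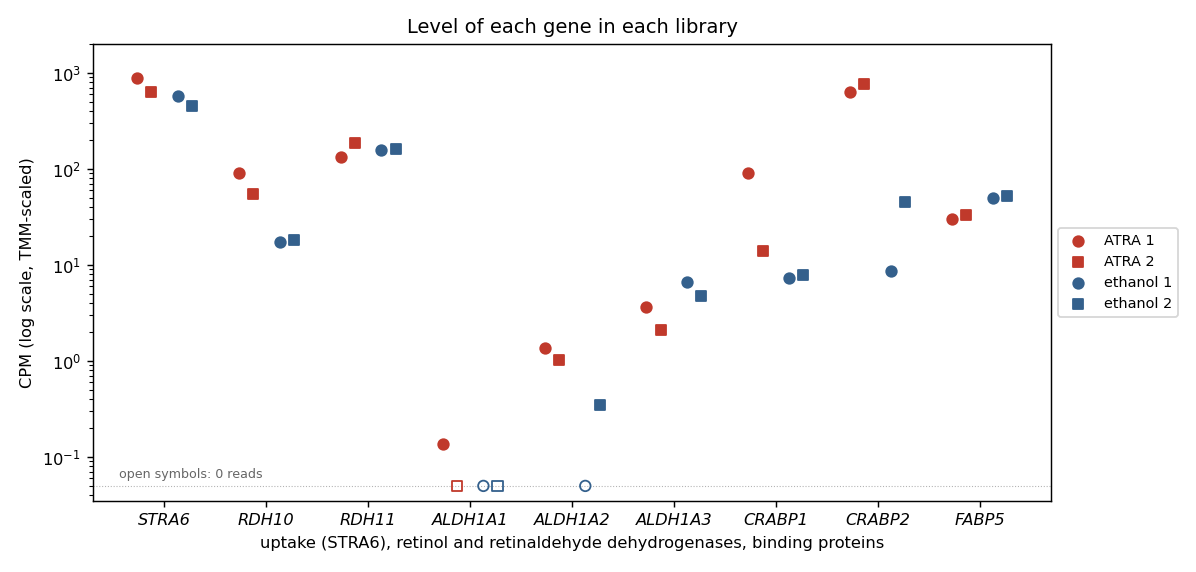
Level of each of the 9 genes in each library, in CPM on a log axis, with ATRA in red left of ethanol in blue, circles for replicate 1 and squares for replicate 2; open symbols mark 0 reads. CRABP2 stands at 629 and 769 CPM with ATRA, against 8.70 and 45.5 CPM with ethanol, while the RDH11 points of the groups overlap.

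CRABP2 and CRABP1 are close relatives on different chromosomes, CRABP2 on chromosome 1 and CRABP1 on chromosome 15. Their coding sequences of 414 and 411 bases matched at 300 of 411 aligned bases (73.0%), with no identical run longer than 12 bases. No stretch of 50 bases of either transcript occurred in a transcript of another gene in GENCODE 29, so a read of that length assigned to CRABP2 differs from CRABP1. On the opposite strand, however, an unclassified gene in GENCODE 29 overlaps 354 bases of CRABP1 (45.9% of its exon bases). The strand setting of the counting is not given in the sources used here, so CRABP1 reads, and the shares computed from them, are uncertain to that extent. The first 90 coding bases are shown because the results turn on telling these genes apart; capitals mark the 24 positions at which the sequences differ.
CRABP2: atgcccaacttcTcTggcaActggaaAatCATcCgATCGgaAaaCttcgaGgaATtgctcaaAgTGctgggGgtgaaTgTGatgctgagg
CRABP1: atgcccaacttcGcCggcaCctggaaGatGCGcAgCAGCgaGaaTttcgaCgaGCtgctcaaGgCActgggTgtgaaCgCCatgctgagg

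CRABP2 had 9281 and 12847 reads in the ATRA libraries, against 113 and 919 in the ethanol libraries. Both ATRA libraries lay far above both ethanol libraries, and the ethanol libraries differed from each other as well. The log2 fold change was 4.68 ± 0.80 (SE; adjusted p 0.0698, edgeR quasi-likelihood), rank 291 of 18900 by p. Within replicate 1 the log2 difference was 6.15, and within replicate 2 it was 4.07. Ethanol replicate 1 has the lower CRABP2 level and the higher share of mitochondrial ribosomal RNA; the part of this in the result was not tested. The estimate was 6.34 without ethanol replicate 2 and 3.89 without ethanol replicate 1. Over all alternatives adjusted p ran from 1.03e-18 to 0.0897 (edgeR quasi-likelihood, DESeq2 and limma-voom).

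CRABP1 followed CRABP2 in direction, but its size rested on 1 library. It was at 89.7 and 13.8 CPM with ATRA, against 7.24 and 7.78 CPM with ethanol. ATRA replicate 1 stood far above the other libraries, and ATRA replicate 2 lay just above the ethanol pair. The log2 fold change was 2.78 ± 0.83 (SE; adjusted p 0.183, edgeR quasi-likelihood), with 3.61 within replicate 1 and 0.82 within replicate 2. Without ATRA replicate 1 it was 0.87, and without ATRA replicate 2 it was 3.56. Adjusted p lay between 2.44e-14 and 0.809 over the alternatives (edgeR quasi-likelihood, DESeq2 and limma-voom).

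Markers of fibroblasts and smooth muscle were also uneven between the ATRA libraries. Of the 9 on the list all had reads, 0 were called, and their summed level was 367 and 590 CPM with ATRA and 403 and 706 CPM with ethanol. At an unadjusted p under 0.05 (edgeR quasi-likelihood) 3 of the 8 tested were higher and 1 lower, where 15.9% of all genes passed in either direction. ACTA2, smooth muscle actin, was at 51.2 and 11.6 CPM with ATRA, against 1.85 and 3.47 CPM with ethanol. COL1A1, a fibrillar collagen, was at 23.0 and 4.91 CPM with ATRA, against 0 and 0.644 CPM with ethanol, and PDGFRA, a growth factor receptor, at 7.86 and 2.15 CPM with ATRA, against 0.462 and 1.29 CPM with ethanol. These 3 were high in the library in which CRABP1 was high. Others were not high there: LUM, a matrix proteoglycan, was at 13.7 and 21.8 CPM with ATRA, against 39.8 and 125.7 CPM with ethanol, and DCN, another, at 40.9 and 246 CPM with ATRA, against 139 and 310 CPM with ethanol. In all, 5 of the 9 were higher in ATRA replicate 1 than in ATRA replicate 2, and 4 were lower. Their part in the CRABP1 result was not tested.

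Of the endothelial, blood and epithelial markers 4 of 12 were tested and 0 were called, with sums of 10.4 and 12.8 CPM with ATRA, against 3.23 and 2.28 CPM with ethanol. CD68, LYZ and KRT5 were at 0 in all libraries. Most of the ATRA sum was the simple-epithelium keratins, KRT18 at 3.18 and 3.59 CPM with ATRA, against 0.154 and 0.0991 CPM with ethanol, and KRT8 at 3.59 and 6.76 CPM with ATRA, against 0.385 and 0.942 CPM with ethanol. Their adjusted p was 0.0533 and 0.123 (edgeR quasi-likelihood). KRT18 passed the filter through its ATRA libraries alone, while KRT8 also had 19 reads in ethanol replicate 2. EPCAM, an epithelial adhesion molecule, was at 1.29 and 1.74 CPM with ATRA and 1.39 and 0.942 CPM with ethanol. The part of these markers in the results for the 9 genes was not tested. In bulk RNA, more cells that express a gene and more RNA per cell cannot be told apart.

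Because CRABP1 and CRABP2 were counted in the same libraries, their proportions, of reads and not corrected for gene length, do not depend on scaling between libraries. CRABP2 made up 87.5% and 98.2% of the CRABP reads with ATRA, against 54.6% and 85.4% with ethanol. The exact binomial 95% intervals, which cover counting error only, were 86.87% to 88.14% and 97.99% to 98.45% with ATRA, and 47.5% to 61.5% and 83.2% to 87.5% with ethanol. The group means were 92.9% ± 7.57 and 70.0% ± 21.8 (SD, n = 2 each), and the difference of 22.9 percentage points had a two-sided exact permutation p of 0.333, the smallest that 2 libraries against 2 can give. ATRA replicate 1 and ethanol replicate 2 lay next to each other, and without ethanol replicate 1 the difference was 7.46 points. Summed, the CRABP genes were at 718 and 782 CPM with ATRA, against 15.9 and 53.3 CPM with ethanol.

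FABP5 was lower with ATRA, in the direction opposite to the CRABP genes. It was at 30.3 and 33.1 CPM with ATRA, against 49.7 and 52.8 CPM with ethanol. The libraries of each group lay close together and the groups did not overlap. The log2 fold change was -0.69 ± 0.24 (SE; adjusted p 0.238, edgeR quasi-likelihood), with -0.71 within replicate 1 and -0.67 within replicate 2. FABP5 reads are uncertain, since the gene has processed copies: 46.4% of the 50-base stretches of its transcript also occur in transcripts of other genes, 44.4% in FABP5P7 alone. The 13 pseudogene rows held 48 and 75 reads with ATRA and 26 and 67 with ethanol, 49 of the ATRA reads and 7 of the ethanol reads in FABP5P10. With those reads added to FABP5 the log2 fold change was -0.60 ± 0.24 (SE; adjusted p 0.303, edgeR quasi-likelihood), an alternative added after the data were seen.

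The number of CRABP2 reads per FABP5 read, a ratio also chosen after the data were seen, was 20.8 and 23.2 with ATRA, against 0.175 and 0.863 with ethanol. This counts reads without regard to gene length. Per kilobase of merged exons CRABP2 was the higher in both ATRA libraries and FABP5 in ethanol replicate 1. In ethanol replicate 2 they were close, with CRABP2 at 41.4 and FABP5 at 40.7 CPM per kilobase. That closeness depends on the length used. Merged exons span 1100 bases for CRABP2 and 1298 for FABP5, against 1033 and 851 bases in the single transcripts examined. The ratio of the group means was 42.3, or 125 without ethanol replicate 2 and 25.5 without ethanol replicate 1. The two-sided exact permutation p of the difference was 0.333, the smallest this design allows.

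**Figure D2:**
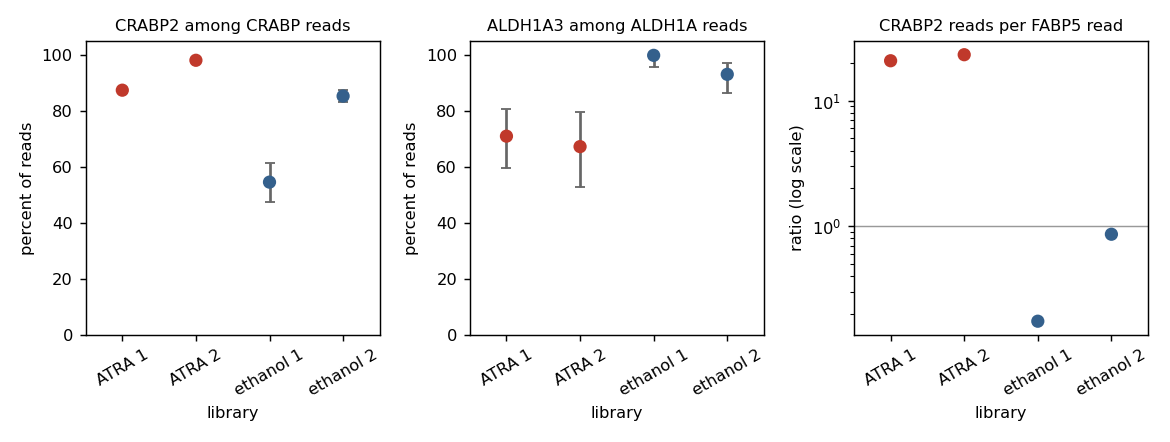
Proportions within each library, with ATRA in red left of ethanol in blue: CRABP2 as a percentage of CRABP1 and CRABP2 reads, ALDH1A3 as a percentage of ALDH1A reads, and CRABP2 reads per FABP5 read on a log axis; bars are exact binomial 95% intervals. CRABP2 per FABP5 read is 20.8 and 23.2 with ATRA, against 0.175 and 0.863 with ethanol, and ALDH1A3 is 71.0% and 67.3% with ATRA, against 100% and 93.2% with ethanol.

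STRA6, the membrane receptor that takes retinol from its blood carrier, was abundant in both groups. It had 12990 and 10505 reads with ATRA, against 7542 and 9098 with ethanol, which is 880 and 628 CPM with ATRA and 581 and 451 CPM with ethanol. The groups did not overlap, but the lower ATRA library lay close to the higher ethanol library. The log2 fold change was 0.55 ± 0.29 (SE; adjusted p 0.449, edgeR quasi-likelihood), with 0.60 within replicate 1 and 0.48 within replicate 2. The estimate stayed between 0.28 and 0.76 over the alternatives.

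The retinol dehydrogenases differed from each other. RDH10, the main enzyme for the first oxidation step in embryos, was at 91.1 and 55.3 CPM with ATRA, against 17.5 and 18.2 CPM with ethanol. The ethanol libraries were nearly equal and both ATRA libraries lay well above them. Its log2 fold change of 2.03 ± 0.32 (SE; adjusted p 0.0617, edgeR quasi-likelihood) ranked 225 of 18900 by p, with 2.37 within replicate 1 and 1.59 within replicate 2. Over the alternatives the estimate stayed between 1.62 and 2.34, and adjusted p between 7.86e-07 and 0.0735 (edgeR quasi-likelihood, DESeq2 and limma-voom).

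RDH11, a retinal reductase and dehydrogenase of the endoplasmic reticulum, was at 132 and 188 CPM with ATRA, against 157 and 161 CPM with ethanol. The ATRA libraries lay on either side of the ethanol libraries. Its log2 fold change was 0.01 ± 0.27 (SE; adjusted p 0.995, edgeR quasi-likelihood), with -0.25 within replicate 1 and 0.22 within replicate 2. GENCODE 29 has another protein-coding gene on the same strand that shares 346 of its 2588 exon bases (13.4%), so some of its reads are uncertain.

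**Figure D3:**
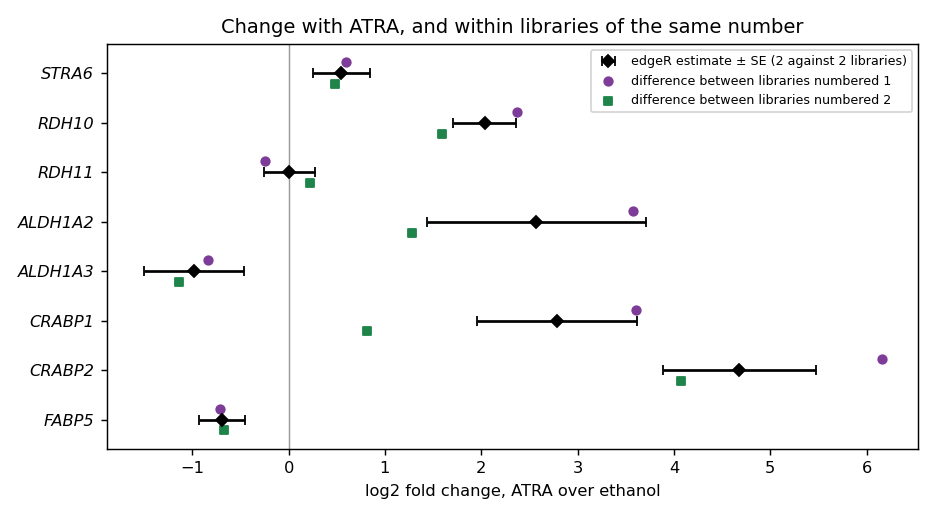
Log2 fold change of ATRA over ethanol for the 8 genes tested, as the edgeR estimate with its SE (black), and the log2 difference between the libraries of replicate 1 (purple) and of replicate 2 (green). FABP5 lies at -0.71 and -0.67 within the replicate numbers, while CRABP1 lies at 3.61 and 0.82.

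The genes of the last step, retinaldehyde to retinoic acid, were scarce. ALDH1A3 had 54 and 35 reads with ATRA, against 86 and 96 with ethanol. Both ATRA libraries were lower than both ethanol libraries, with 3.66 and 2.09 CPM against 6.62 and 4.76 CPM. The log2 fold change was -0.98 ± 0.52 (SE; adjusted p 0.442, edgeR quasi-likelihood), with -0.83 within replicate 1 and -1.14 within replicate 2. An antisense gene in GENCODE 29 overlaps 29.2% of its exon bases, which leaves its reads uncertain in the same way.

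ALDH1A2, the main retinoic acid-forming enzyme of early embryos, had 20 and 17 reads with ATRA, against 0 and 7 with ethanol. The groups did not overlap, but no library held more than 20 reads. The log2 fold change was 2.57 ± 1.13 (SE; adjusted p 0.349, edgeR quasi-likelihood), with 3.58 within replicate 1 and 1.28 within replicate 2. ALDH1A1, known as a stem cell and liver enzyme, had 2 reads in ATRA replicate 1 and 0 in the other 3 libraries, and did not pass the filter. The limit that a count of 0 allows, 3 counts, corresponds to between 0.149 and 0.231 CPM in these libraries.

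ALDH1A3 thus made up 71.0% and 67.3% of ALDH1A reads with ATRA, against 100% and 93.2% with ethanol. The exact binomial 95% intervals were 59.5% to 80.9% and 52.9% to 79.7% with ATRA, and 95.8% to 100% and 86.5% to 97.2% with ethanol. The means were 69.2% ± 2.65 with ATRA and 96.6% ± 4.81 with ethanol (SD, n = 2 each), a difference of -27.4 percentage points with a two-sided exact permutation p of 0.333. The reads behind these shares were 76 and 52 with ATRA and 86 and 103 with ethanol. In sum the ALDH1A genes were at 5.15 and 3.11 CPM with ATRA and 6.62 and 5.10 CPM with ethanol, ranges that overlap.

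Levels of different genes were set side by side per kilobase of exon, with lengths from GENCODE 29. The length is that of all exons in a gene's basic transcripts, merged, and another choice can change the order. STRA6 has 5483 such bases against 2565 in the single transcript examined, and FABP5 has 1298 against 851. In CPM per kilobase CRABP2 led with ATRA at 571.5 and 698.6, ahead of STRA6 at 160.5 and 114.6. CRABP1, at 116.2 and 17.9, lay below STRA6 and above RDH10 (22.1 and 13.4) within each ATRA library. It was above RDH11 (51.1 and 72.8) and FABP5 (23.3 and 25.5) in ATRA replicate 1 and below them in ATRA replicate 2. Its place against these genes is therefore not set. The ALDH1A genes were last, each under 1 CPM per kilobase in both ATRA libraries.

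With ethanol the order began with STRA6 at 105.9 and 82.2 CPM per kilobase, then RDH11 at 60.7 and 62.3 and FABP5 at 38.3 and 40.7. CRABP2, at 7.91 and 41.4, overlapped FABP5 and CRABP1 (9.37 and 10.1), and RDH10 lay below them at 4.24 and 4.42. ALDH1A3 was at 1.22 and 0.877 and ALDH1A2 at 0 and 0.0791. CRABP2 thus stood first among the 9 in both ATRA libraries, and in both ethanol libraries STRA6 did.

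**Figure D4:**
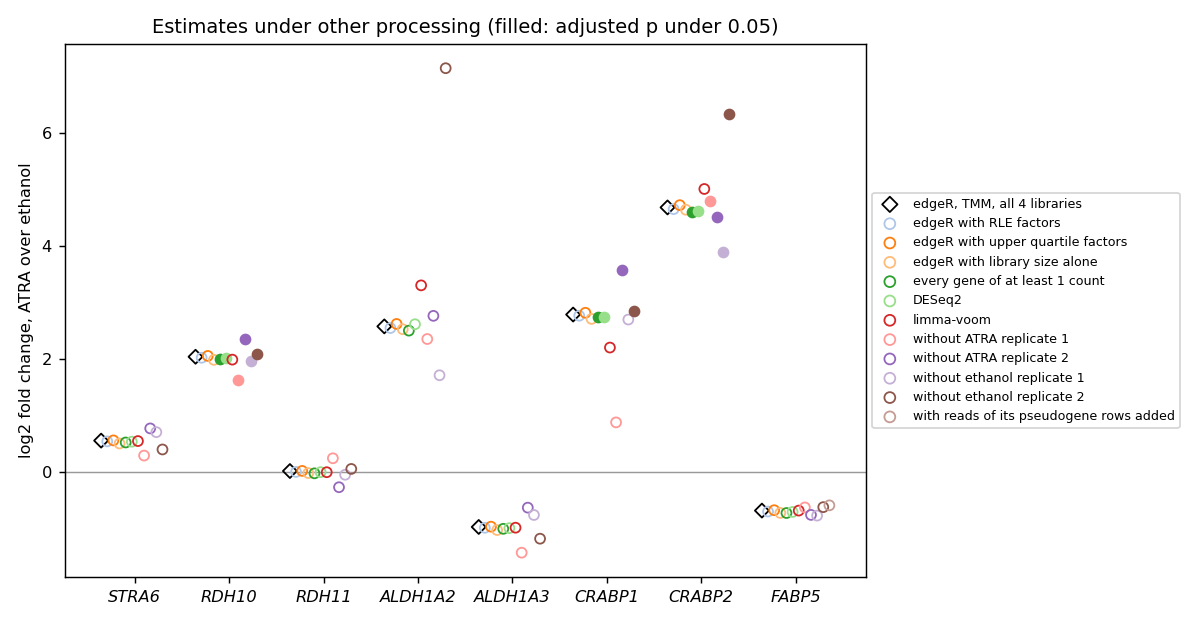
Log2 fold change of ATRA over ethanol for the 8 genes under the edgeR fit of all 4 libraries (black diamonds) and under other processing (coloured circles), filled where adjusted p was under 0.05 by the named tool. The fit with the title number as a replicate block, which called STRA6, RDH10 and FABP5 among 4098 of 18900 genes, is not drawn. RDH10 stays between 1.62 and 2.34, CRABP1 reaches down to 0.87 without ATRA replicate 1, and the ALDH1A2 point at 7.15 sets ATRA against a lone ethanol library with 0 reads.

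Upstream sequence is shown for CRABP2 and CRABP1, on which the results turn, and for the STRA6 window that held the most hexamers of its 5. The RefSeq promoter table (GRCh38.p14, not the build the counts were made on) held 7 of the 9 genes, in 12 windows of 300 bases. Retinoic acid response elements are built from hexamers, here AGGTCA in its standard form, with AGTTCA as a first variant, GGGTCA as another and finally the form GGTTCA. These were searched on both strands, alone and as direct repeats with spacers of 1, 2 or 5 bases, and a repeat therefore also counts as lone hexamers. None of the 12 windows held such a repeat, and among all 35116 windows 0.131%, 0.0399% and 0.0883% did, by spacer. A lone hexamer occurred in 38.6% of all windows. The 250 bases before the start site follow, for STRA6 at the most upstream of its starts, with the hexamers of either strand in capitals.
CRABP2 (chr1:156705785-156706034, minus strand): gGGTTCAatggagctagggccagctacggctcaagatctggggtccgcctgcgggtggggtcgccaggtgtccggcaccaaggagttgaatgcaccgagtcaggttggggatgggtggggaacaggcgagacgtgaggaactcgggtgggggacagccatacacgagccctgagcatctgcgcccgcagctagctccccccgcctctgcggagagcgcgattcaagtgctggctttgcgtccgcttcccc
CRABP1 (chr15:78340103-78340352, plus strand): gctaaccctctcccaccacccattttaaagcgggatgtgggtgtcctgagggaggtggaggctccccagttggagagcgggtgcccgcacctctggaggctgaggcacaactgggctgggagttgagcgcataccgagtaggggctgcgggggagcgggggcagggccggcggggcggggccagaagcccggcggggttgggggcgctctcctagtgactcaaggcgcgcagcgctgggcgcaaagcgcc
STRA6 (chr15:74212260-74212509, minus strand): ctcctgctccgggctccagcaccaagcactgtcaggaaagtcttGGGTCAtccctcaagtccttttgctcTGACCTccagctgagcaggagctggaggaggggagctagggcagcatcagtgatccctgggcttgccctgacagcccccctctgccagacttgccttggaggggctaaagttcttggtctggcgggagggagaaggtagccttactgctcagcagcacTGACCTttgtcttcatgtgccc

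The window of CRABP2 held 1 hexamer, at its far end, and that of CRABP1 held 0. The 5 windows of STRA6 held 3, 0, 1, 0 and 0, from the most upstream on. The first was chosen for its count, and the bases after its start were not found near the start of the GENCODE 29 transcript examined, while those of the last, with 0, were. The windows of ALDH1A2 held 0 and 1, and those of ALDH1A1, ALDH1A3 and RDH11 held 0. These are matches of letters in a short window and do not show binding; elements outside it were not searched. GGGCGG, a box for general factors of the Sp family, occurred in 45% of all windows, and 6 times in the window of ALDH1A3, which is 81.7% G and C.

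The enzymes and carriers around these genes were described from lists. Of 23 genes that interconvert retinol and retinaldehyde or cleave carotenoids, 11 were tested, 1 rose and 0 fell (median log2 fold change -0.18, beside 0.01 over all genes). The 1 was DHRS3, which reduces retinaldehyde back to retinol: it had 204 and 429 reads with ATRA, against 1 and 8 with ethanol (log2 6.22 ± 0.74 SE, adjusted p 0.0410, edgeR quasi-likelihood). It passed the filter through its ATRA libraries alone, so once tested it had to be higher there. BCO2, which cleaves carotenoids, was at 14.2 and 11.4 CPM with ATRA, against 3.62 and 1.29 CPM with ethanol, and missed the threshold (edgeR quasi-likelihood, adjusted p 0.128). AKR1B1, an aldo-keto reductase, and ADH5, a ubiquitous alcohol dehydrogenase, were at log2 -0.48 ± 0.23 and 0.41 ± 0.23 (SE).

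Among 17 genes for retinol carriers and retinyl esters, 5 were tested and 0 were called (median 0.11). SCARB1, a lipoprotein and carotenoid receptor, was at 74.8 and 76.0 CPM with ATRA, against 121.6 and 125.2 CPM with ethanol (log2 -0.71 ± 0.23 SE, adjusted p 0.206, edgeR quasi-likelihood). LIPE and DGAT1, which break down and form neutral lipid esters, were at log2 0.11 ± 0.43 and 0.06 ± 0.34 (SE). LRAT, the main retinol esterifying enzyme, had 0 reads with ATRA and 2 and 1 with ethanol, at or under the limit of 3 counts.

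A list of 17 genes held other aldehyde dehydrogenases, whatever their substrate, and cytochromes that can form retinoic acid. Of these 16 were tested and 0 were called (median -0.31). CYP1A1, a xenobiotic-metabolising cytochrome, was at log2 2.76 ± 0.70, ALDH4A1, an enzyme of proline breakdown, at -1.36 ± 0.40, ALDH3A2, a fatty aldehyde dehydrogenase, at 0.92 ± 0.34 and ALDH3B1 at -1.24 ± 0.47 (SE). Of 12 genes of the fatty acid binding protein family and the PPAR receptors, 5 were tested and 0 were called (median 1.21). PPARD, the receptor FABP5 can serve, was at 49.9 and 31.3 CPM with ATRA, against 12.6 and 22.4 CPM with ethanol. Its log2 fold change was 1.21 ± 0.40 (SE; adjusted p 0.217, edgeR quasi-likelihood). PPARG, the adipocyte receptor, was at log2 2.71 ± 0.52 (adjusted p 0.0816, edgeR quasi-likelihood), PPARA at -0.81 ± 0.39 and FABP3 at 1.53 ± 0.76 (SE).

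Of 5 genes for the breakdown of retinoic acid, 2 were tested, CYP26A1 and CYP26B1. CYP26A1 had 2066 and 4466 reads with ATRA and 0 in either ethanol library, and CYP26B1 had 356 and 1175 with ATRA, against 1 and 0 with ethanol. Both passed the test (adjusted p 0.0182 and 0.0327, edgeR quasi-likelihood), as 0.698% of all genes did in either direction. With at most 1 ethanol read they could enter the test through their ATRA libraries alone, so nothing is read from the count of 2.

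**Figure D5:**
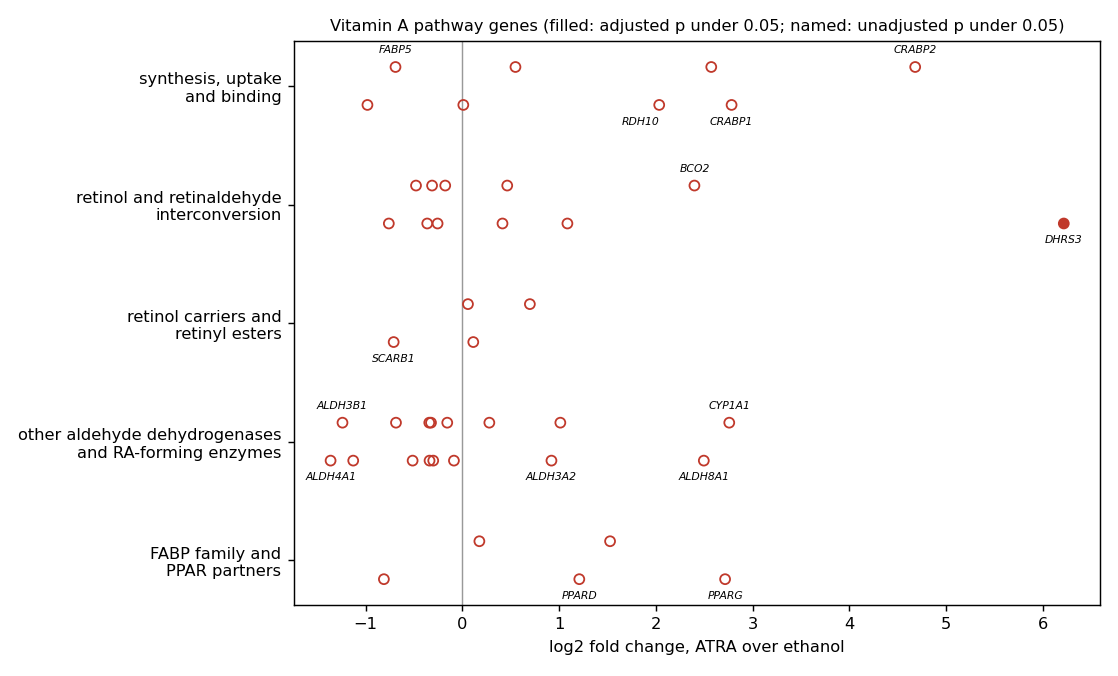
Log2 fold change of ATRA over ethanol for tested genes of the vitamin A pathway (1 tested gene of the carrier list is not shown), a row per list, filled where adjusted p was under 0.05 (edgeR quasi-likelihood) and named where the unadjusted p was under 0.05. The breakdown enzymes are left off the plot because their ethanol libraries were empty or nearly so. DHRS3 at 6.22 is the filled point, and CRABP2 at 4.68 is the highest of the 9 genes described.

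The genes whose pattern over the 4 libraries was most like that of CRABP2 were FBLIM1, a filamin-binding adaptor, DUSP6, a phosphatase of ERK kinases, and FREM1, a matrix protein. Likeness was the Euclidean distance between log2 CPM profiles centred on their means, which was 0.664, 0.772 and 0.774 among 10337 genes with a mean log2 CPM of at least 3. DUSP6 was at 401 and 396 CPM with ATRA, against 7.47 and 18.9 CPM with ethanol. The log2 fold changes, 4.91 ± 0.51 for DUSP6, 5.42 ± 0.57 for FREM1 and 4.41 ± 0.92 for FBLIM1 (SE), are given as a description with no test, since the choice by likeness to CRABP2 in the same libraries fixed that they were high.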

How the data were processed

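RNA-seq of 2 ATRA and 2 ethanol libraries was analysed. Values are the authors' deposited raw counts, with gene symbols in rows and 1 column per library. STAR 2.5.2b and featureCounts 1.5.1 are named with the build hg19, per the submitters' processing notes; the annotation, strand setting and handling of shared reads are not stated there.

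Counts were fitted with edgeR 4.0.16 (R 4.3.3): filterByExpr with a minimum count of 10, TMM scaling, the robust quasi-likelihood F test with group as the sole term, and Benjamini-Hochberg adjustment over the 18900 genes tested, threshold 0.05, two-sided. SE is the absolute log2 fold change over the square root of F. Differences within replicate numbers used log2 CPM with a prior count of 2. DESeq2 1.42.0, limma-voom (limma 3.58.1), other scalings, no filter, a block and leaving out each library were alternatives. The procedure was tested on simulated data, drawn independently for each library and without an effect of the title number. Intervals and the floor of 3 counts cover counting error only.

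The genes and lists were chosen with earlier results of these data known. Named from each list were genes called, then those of smallest p, up to 4, with a mean log2 CPM of at least 1; 1 such gene of the carrier list is not reported here. Exon lengths, overlaps and 50-base matches came from GENCODE 29 (GRCh38) and promoters from RefSeq; no coordinates of the counts were used. Of the marker lists, Schwann cell and glial genes had 0 of 6 tested called (summed 18.4 and 23.3 CPM with ATRA, 10.3 and 13.4 CPM with ethanol; FOXD3 at 0). Of the 13 neuroblastoma markers 0 rose and GATA3 and HAND1 fell.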

Additional observations from a re-analysis of the deposited data

How the results depend on the processing

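Without 1 library the fits called 2 to 3 of the 9 genes and 870 to 1442 of all genes, against 0 and 132 with all 4; the lone library is then assumed to vary like the other group. RDH10 and CRABP2 were called in each of these, and CRABP1 without ATRA replicate 2 or ethanol replicate 2. Keeping all genes with 1 count or more, 3 of the 9 and 1821 of all genes were called; with DESeq2, 3 and 1269; with limma-voom, 0 and 50. The cause was not tested. Other scalings called 0 of the 8 and 118 to 138 of 18900 genes. With the title number as a replicate block, 3 of the 8 (STRA6, RDH10 and FABP5) and 4098 of 18900 genes were called. A call in that fit was thus common among all genes. CRABP1 and CRABP2 were not called in it. Deviations from the group means correlated at 0.632 across genes between libraries of the same number. With 2 libraries a group, this value compares only 1 difference from each group. The labels give no pairing or batch, and the cause was not tested.

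Directions held in all alternatives for the genes tested except RDH11, whose estimate near 0 turned to -0.007 with RLE factors, -0.027 with library size alone, -0.032 on keeping all genes with 1 count or more, -0.011 with DESeq2, -0.012 with limma-voom and with the block, and lay between -0.278 and 0.235 without 1 library (-0.278 without ATRA replicate 2, -0.057 without ethanol replicate 1). Without 1 library the CRABP2 share differed by 7.46 to 38.3 points and the ALDH1A3 share by -30.8 to -24.0 points. The ALDH1A2 estimates rest on at most 20 reads a library.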
